A study of Mus musculus with 6 samples.

Results

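The genes described here are the feedback inhibitors of NF-κB and its inducible subunits: the IκB family members *Nfkbia*, *Nfkbib*, *Nfkbie*, *Nfkbiz* and *Bcl3*, the ubiquitin-editing enzyme gene *Tnfaip3* and its partner *Tnip1*, and the subunit genes *Nfkb1*, *Nfkb2* and *Relb*. They were found by gene name among the non-control spots of 6 arrays, which gave 16 spots, 15 probes and 10 genes of the 59305 spots, 55681 probes and 22239 named genes on each array. Spots were picked by name and not by measured value, but the genes were chosen with earlier results of these data known. The arrays compare 3 samples of 1G11-mock cells (no SOD3 overexpression) with 3 samples of 1G11-SOD3 cells (SOD3 overexpressed). 1G11 is a mouse microvascular endothelial cell line, labeled strain C57BL/6NCrLBR, and SOD3 is the extracellular superoxide dismutase. Both lines had spent 6 h in N202.1A-conditioned medium (N202.1A is a mouse mammary cancer line), so no array shows either line without that medium. Each group is 1 modified line, and its 3 arrays are independent experiments with that line, so the comparison cannot separate the transgene from other differences between the lines. Between 34.2% and 43.8% of the spots of an array were well above background, and no spot was saturated. The probe for *Sod3* lay in the disturbed middle of the arrays described below and read 13.61, 12.66 and 9.86 (log2 intensity) on the 1G11-mock arrays and 16.37, 16.30 and 16.26 on the 1G11-SOD3 arrays, in the direction of the labels, where the local difference described below was 1.65 (log2).

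NF-κB is a family of dimeric transcription factors held in the cytoplasm by IκB proteins. Inflammatory signals activate the IκB kinase (IKK) complex, which marks IκBα for degradation, and freed dimers then enter the nucleus and bind κB sites. Many of the genes induced there encode brakes of the same pathway: IκBα and IκBε take dimers back out of the nucleus, A20 (*Tnfaip3*) removes the ubiquitin chains on which IKK activation depends, and ABIN1 (*Tnip1*) brings A20 to those chains. p105 (*Nfkb1*), p100 (*Nfkb2*) and RelB are subunits or precursors whose genes are themselves NF-κB targets. In endothelial cells the pathway is known for switching on chemokines and leukocyte adhesion molecules. The series asked how SOD3 changes the transcriptional program of endothelial cells exposed to tumor-conditioned medium, and the comparison below asks whether the mRNA levels of these regulators differed between the lines.

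Each array value comes from a 60-base probe, and the probes of a gene need not see the same part of its mRNA. The probes shown, in lower case and 5′ to 3′, are for *Nfkbia* and *Nfkbiz*, which passed the test described below, and for *Nfkb2*, *Nfkb1* and *Nfkbib*, which did not. The *Nfkbia* and *Nfkb2* probes span more genomic bases than their own length, that is, they cross exon junctions.
*Nfkbia* (chromosome 12, 56590945 to 56591440 in the array annotation, whose build is not named): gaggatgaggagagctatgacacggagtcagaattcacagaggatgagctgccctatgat
*Nfkbiz* (chromosome 16, 55817859 to 55817918): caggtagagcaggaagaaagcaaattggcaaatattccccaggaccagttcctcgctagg
*Nfkb2* (chromosome 19, 46386146 to 46386285): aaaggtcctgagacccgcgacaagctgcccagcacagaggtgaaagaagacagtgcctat
*Nfkb1* (chromosome 3, 135254550 to 135254609): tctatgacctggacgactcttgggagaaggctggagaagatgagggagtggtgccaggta
*Nfkbib* (chromosome 7, 29544160 to 29544219): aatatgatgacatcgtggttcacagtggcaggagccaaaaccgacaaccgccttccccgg

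Since many of the members are known NF-κB targets, the 250 bases before their transcription starts were searched for the κB consensus motif, on both strands and with overlapping matches joined. RefSeq promoters (GRCm38.p6) were at hand for 7 members with 10 start sites. Of these, 5 genes (7 start sites) held at least 1 match, against 1281 of 32851 promoters over the genome (3.90%), a description only, because such genes were picked. The match began 29 bases before the start in *Nfkbia*, 106 in *Nfkbie*, 125 and 12 in *Tnfaip3*, 58 in *Tnip1*, and 39 and 11 at the first of the *Nfkb2* starts. The windows of *Nfkbib* and *Bcl3* held no match, which says only that these letters are absent there. The windows are shown for 3 genes that were lower in 1G11-SOD3 cells and for *Nfkbib*, which did not pass the test. *Tnip1* and *Nfkb2*, whose windows held matches, did not pass it either. The other *Tnfaip3* start, not shown, held no match. The windows run 5′ to 3′ along the gene, ending at the base before the start, with matches to the motif in capitals.
*Nfkbia* (chr12:55492648-55492897, minus strand): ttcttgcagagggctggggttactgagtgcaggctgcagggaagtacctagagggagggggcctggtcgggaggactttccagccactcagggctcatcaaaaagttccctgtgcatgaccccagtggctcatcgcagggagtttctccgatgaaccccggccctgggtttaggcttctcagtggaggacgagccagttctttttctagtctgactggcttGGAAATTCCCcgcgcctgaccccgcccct
*Nfkbie* (chr17:45555450-45555699, plus strand): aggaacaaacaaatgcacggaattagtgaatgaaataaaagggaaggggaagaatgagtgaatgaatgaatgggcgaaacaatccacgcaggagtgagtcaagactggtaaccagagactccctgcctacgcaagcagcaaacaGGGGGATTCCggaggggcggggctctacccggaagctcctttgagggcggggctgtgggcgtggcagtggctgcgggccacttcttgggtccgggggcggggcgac
*Tnfaip3* (chr10:19015411-19015660, minus strand): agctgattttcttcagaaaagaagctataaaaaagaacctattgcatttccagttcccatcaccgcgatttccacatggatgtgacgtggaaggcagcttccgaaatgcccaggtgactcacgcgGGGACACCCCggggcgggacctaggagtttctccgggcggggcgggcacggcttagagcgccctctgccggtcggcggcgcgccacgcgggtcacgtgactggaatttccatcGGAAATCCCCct
*Nfkbib* (chr7:28766645-28766894, minus strand): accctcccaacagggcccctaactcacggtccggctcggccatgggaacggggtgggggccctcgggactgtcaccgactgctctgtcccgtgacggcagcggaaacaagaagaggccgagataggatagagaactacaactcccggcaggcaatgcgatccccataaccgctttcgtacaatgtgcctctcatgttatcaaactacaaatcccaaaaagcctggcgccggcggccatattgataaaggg

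Where a spot lay affected the comparison. On the 1G11-mock arrays, which all lay in row 2 of the slide, spots in a rectangular block in the middle of the array read dimmer than on the 1G11-SOD3 arrays, which all lay in row 1. Cell line and slide row therefore cannot be told apart. A smooth surface over rows and columns gave a median local difference of 1.11 (log2, 1G11-SOD3 minus 1G11-mock) in the middle and -0.11 elsewhere. It was fitted only to spots well above background on several arrays. Bright probes as a whole leaned lower, as described below, so the surface does not fully separate place from brightness. Of the members, *Bcl3* alone had its spot in the middle. The other 9 genes (14 probes) lay outside, at local differences of -0.44 to 0.04 with a median of -0.17. The 49526 probes outside and the 6434 probes in the middle were fitted separately with limma, and a probe passed at an adjusted p under 0.05.

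**Figure D1:**
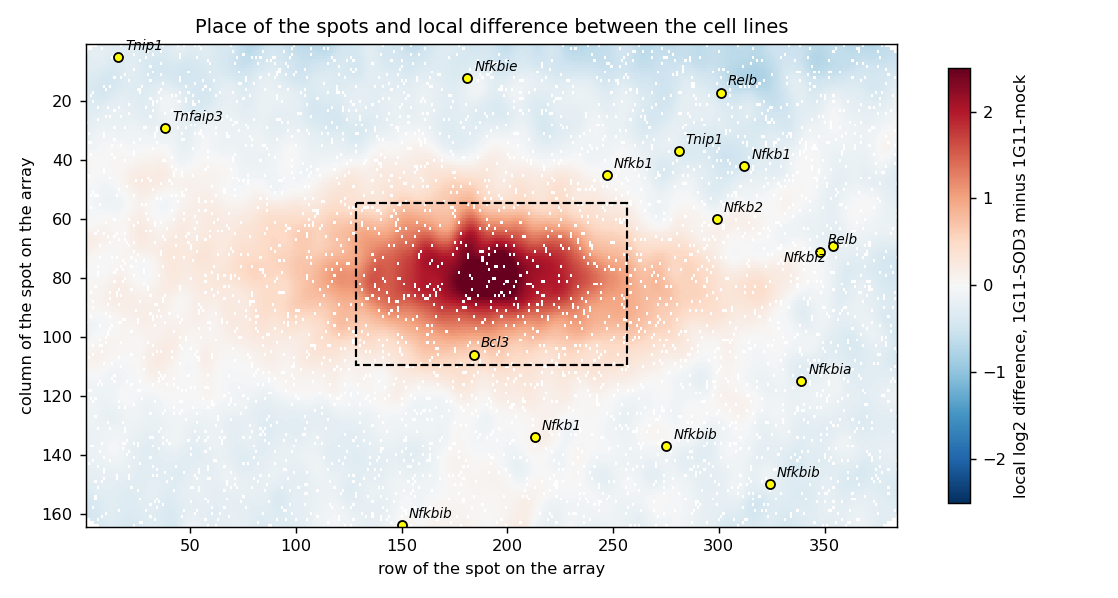
Place of the 16 spots of the 10 genes on the array (points; axes are row and column numbers), over the smoothed local difference between the cell lines (color, log2, 1G11-SOD3 minus 1G11-mock). The dashed frame is the middle, where the median local difference was 1.11, and only *Bcl3* lies in it.

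All 5 member probes that passed outside the middle were lower in 1G11-SOD3 cells, and none was higher. They measured *Tnfaip3*, *Nfkbiz*, *Nfkbie*, *Relb* and *Nfkbia*, at 2.44-fold to 4.90-fold lower levels. *Tnip1*, *Nfkb2*, *Nfkb1* and *Nfkbib* had no passing probe. The 5 probes are 5 of 14, while 1.12% of all probes outside the middle passed as lower and 0.616% as higher. In 8 of the 14 probes the 3 arrays of one line did not overlap those of the other, with 1G11-SOD3 lower, as in 11.4% of all probes outside. At an unadjusted p under 0.05 there were 9 member probes, all of them lower. The share of all probes at that threshold was not counted, so this number has nothing to be set against. Every one of the 14 differences was below 0, where 56.1% of all probes were, except that 2 *Nfkbib* probes turned above 0 with the scanner software's processed signal, and 1 *Nfkbib* and 1 *Nfkb1* probe did so after adjustment for position. The median over the 14 probes was -0.80 (log2 fold change), against -0.06 over all probes outside.

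Bright probes as a whole leaned toward lower values in 1G11-SOD3 cells, so the members were also set beside probes of similar brightness. Among the 13906 probes with a mean log2 intensity above 9 over the 6 arrays, 62.8% were lower by any amount, 3.34% passed as lower, and the median was -0.16. Of the 14 member probes, 12 were that bright, all 12 lay below 0 and their median was -0.99. With the processed signal, scaled by its 75th percentile, the median over all probes fell to -0.50 and that over the members was -0.65, with 3 of the 14 passing (*Tnfaip3*, *Nfkbie* and *Nfkbiz*). With 75th percentile scaling of the corrected intensities the medians were -0.35 and -0.64, with 5 passing. After subtraction of the smooth surface they were 0.09 and -0.67, and the same 5 probes passed, where 0.668% of all probes did as lower. Of all 49526 probes outside the middle, 557 were lower and 305 higher as compared here, and 7070 and 665 with the processed signal. The counts were 1096 and 485 with 75th percentile scaling of the corrected intensities. They were 366 and 417 with normalization over outside spots only, and 331 and 424 after the position adjustment.

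**Figure D2:**
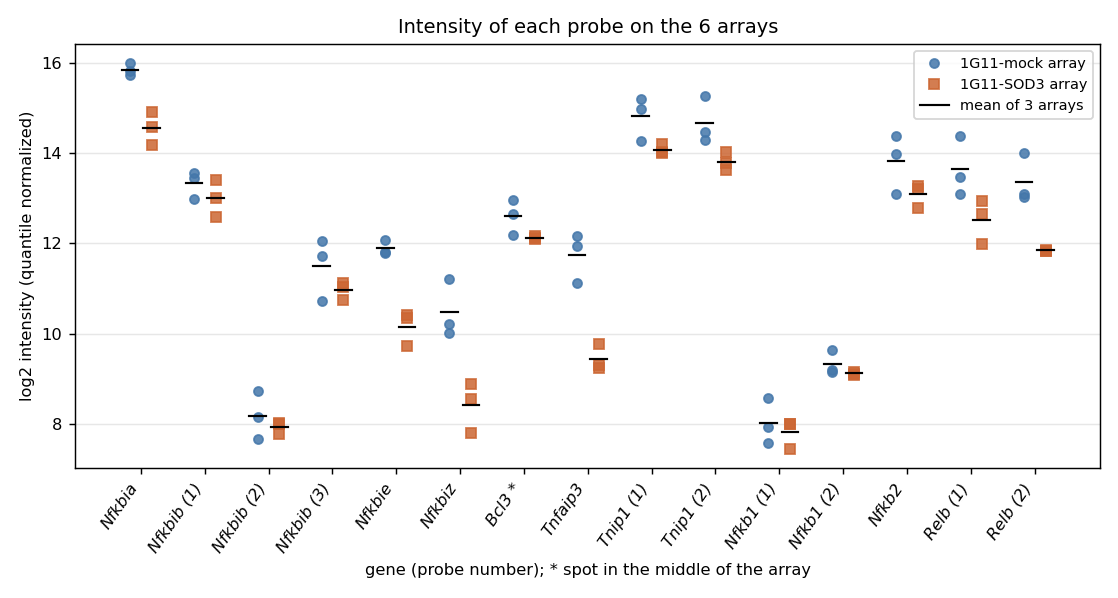
Normalized log2 intensity (vertical axis) of each member probe on the 3 1G11-mock arrays (circles) and the 3 1G11-SOD3 arrays (squares), with the mean of each line as a bar. Numbers in brackets separate probes of a gene, and levels of different probes are not comparable. For *Tnfaip3* the 1G11-mock arrays sit between 11.12 and 12.16 and the 1G11-SOD3 arrays between 9.25 and 9.79, while the points of *Nfkbib* overlap.

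Among the classical IκB genes, *Nfkbia* and *Nfkbie* were lower in 1G11-SOD3 cells and *Nfkbib* did not pass the test. *Nfkbia* encodes IκBα, the inhibitor that is degraded and resynthesized fastest. Its probe read 15.82, 15.72 and 15.99 on the 1G11-mock arrays and 14.18, 14.57 and 14.91 on the 1G11-SOD3 arrays. The lowest 1G11-mock array stood 0.80 above the highest 1G11-SOD3 array. *Nfkbia* was thus 2.44-fold lower, a log2 fold change of -1.29 ± 0.244 (SE, n = 3 per line) with a limma adjusted p of 0.020. This call was the least secure of the 5. Without any 1 array other than 1G11-SOD3 replicate 3 the adjusted p rose to between 0.0636 and 0.0822, at log2 fold changes of -1.10 to -1.35. In a separate measurement, the paper that reported these arrays found IκBα mRNA not to differ between the 2 lines. That measurement used TNF-α and not conditioned medium, and the reason for the difference was not tested.

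*Nfkbie* encodes IκBε, an inducible inhibitor that acts with a delay relative to IκBα. It read 12.09, 11.81 and 11.78 in 1G11-mock cells and 10.42, 10.34 and 9.72 in 1G11-SOD3 cells. No arrays overlapped, and the gap between the lines was 1.37. Its level was 3.32-fold lower (log2 fold change of -1.73 ± 0.249, SE, n = 3 per line), with a limma adjusted p of 0.0038. It passed with each array left out and under each of the 12 alternatives that kept all arrays.

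*Nfkbib* encodes IκBβ, which is not known as a strongly NF-κB-induced gene. Its brightest probe read 12.98, 13.46 and 13.56 on the 1G11-mock arrays and 12.59, 13.40 and 13.00 on the 1G11-SOD3 arrays, so that the lines overlapped. This is a log2 fold change of -0.33, with a 95% interval of -0.91 to 0.25 and a limma adjusted p of 0.633. A second probe gave -0.53 (-1.21 to 0.16) with overlapping arrays. The third was well above background on 1 array of each line and gave -0.25. *Nfkbib* thus had no probe whose lines stood apart.

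*Nfkbiz* and *Bcl3* encode atypical IκB proteins that act in the nucleus, where they take part in transcription at selected target genes. *Nfkbiz* (IκBζ) read 10.03, 10.23 and 11.21 in 1G11-mock cells and 8.56, 7.81 and 8.89 in 1G11-SOD3 cells. The lowest 1G11-mock array was 1.14 above the highest 1G11-SOD3 array, and 1 of the 3 1G11-SOD3 arrays was not well above background. Its level was 4.20-fold lower (log2 fold change of -2.07 ± 0.347, SE, n = 3 per line), with a limma adjusted p of 0.0098. Without background correction the value was -1.61 and its adjusted p came to lie just above the threshold.

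*Bcl3*, with its spot near the edge of the disturbed middle, was tested only among the probes there. It read 12.96, 12.65 and 12.18 on the 1G11-mock arrays and 12.17, 12.12 and 12.11 on the 1G11-SOD3 arrays. The lines did not overlap, but the gap was only 0.012. *Bcl3* had a log2 fold change of -0.47 (95% interval -1.09 to 0.16) with a limma adjusted p of 0.393. Among all probes in the middle 14.0% passed as higher, 0.0622% as lower, and 1.71% had non-overlapping arrays with 1G11-SOD3 lower. The local difference at the *Bcl3* spot was 0.54. With that surface taken off, its log2 fold change was -0.96 and the adjusted p 0.031, in a setting where 27.8% of all probes in the middle passed as lower.

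*Tnfaip3* had the largest difference of the 15 probes as compared here, but *Nfkbiz* exceeded it with the processed signal (-2.59 against -2.17), without 1G11-mock replicate 1 (-2.30 against -2.20) and without 1G11-SOD3 replicate 3 (-2.31 against -2.22). The A20 protein that it encodes limits NF-κB signaling downstream of TNF and Toll-like receptors. Its probe read 11.93, 11.12 and 12.16 on the 1G11-mock arrays and 9.79, 9.25 and 9.31 on the 1G11-SOD3 arrays. All 1G11-SOD3 arrays were at least 1.34 below the lowest 1G11-mock array. *Tnfaip3* was 4.90-fold lower (log2 fold change of -2.29 ± 0.291, SE, n = 3 per line), with a limma adjusted p of 0.0019, and it passed under every alternative and with each array left out.

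*Tnip1*, whose product ABIN1 binds A20, showed a smaller difference that did not pass. Its probes lie end to end on the transcript and are not separate evidence. The first read 14.98, 14.27 and 15.19 in 1G11-mock cells and 14.02, 13.99 and 14.19 in 1G11-SOD3 cells. The second read 14.46, 14.28 and 15.26 against 14.02, 13.78 and 13.63. Neither probe had overlapping lines, with gaps of 0.077 and 0.26. As log2 fold changes they gave -0.74 and -0.86, with limma adjusted p of 0.230 and 0.179. After the position adjustment they were -0.40 and -0.56.

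Of the subunit genes, *Relb* was lower in 1G11-SOD3 cells by 1 of its probes. RelB is the partner of p52 in the noncanonical arm of the pathway. The passing probe read 13.08, 13.02 and 14.01 on the 1G11-mock arrays and 11.84, 11.84 and 11.86 on the 1G11-SOD3 arrays, a gap of 1.16. By this probe *Relb* was 2.88-fold lower (log2 fold change of -1.52 ± 0.276, SE, n = 3 per line), with a limma adjusted p of 0.015. The other probe, which overlaps it at one end, read 13.10, 13.47 and 14.37 against 12.95, 11.99 and 12.64. Its arrays did not overlap, by 0.15, but its log2 fold change of -1.12 ± 0.340 had an adjusted p of 0.148. The local differences at the spots were -0.44 for the passing probe and -0.14 for the other, and after the position adjustment the log2 fold changes were -1.05 and -0.97, with adjusted p of 0.049 and 0.089. The passing probe lost its call without 1G11-SOD3 replicate 2 (adjusted p of 0.0536) or replicate 3 (0.0611) and with the processed signal (0.0921), where its log2 fold change was -0.71 in place of -1.52.

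*Nfkb2*, which encodes p100 and p52, read 13.09, 13.98 and 14.38 in 1G11-mock cells and 13.26, 12.79 and 13.20 in 1G11-SOD3 cells. The lowest 1G11-mock array fell among the 1G11-SOD3 arrays. For *Nfkb2* the log2 fold change was -0.73 (95% interval -1.41 to -0.05), and the limma adjusted p was 0.332. *Nfkb1*, which encodes p105 and p50, showed the smallest differences of the members as compared here. Its brighter probe read 9.16, 9.20 and 9.65 against 9.09, 9.16 and 9.12, a log2 fold change of -0.21 (-0.71 to 0.28) with an adjusted p of 0.728. The other *Nfkb1* probe, printed at 2 places on the array, was well above background on 1 of the 1G11-mock and 2 of the 1G11-SOD3 arrays. It averaged -0.21, with -0.05 at the spot where the local difference was 0.10 and -0.37 at the spot where it was -0.36.

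**Figure D3:**
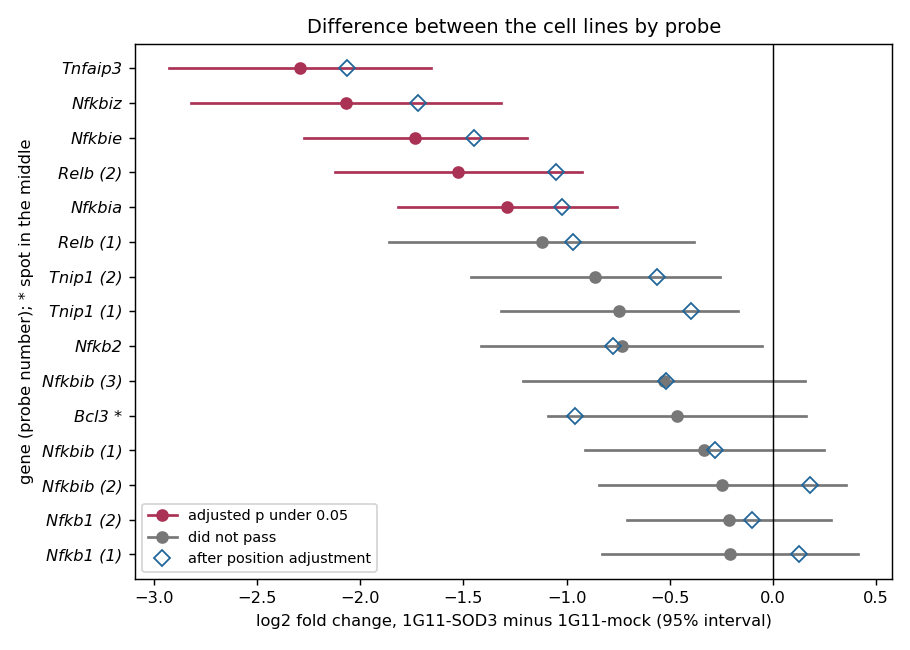
Log2 fold change of each probe (horizontal axis, 1G11-SOD3 minus 1G11-mock) with its 95% interval from limma, red where the adjusted p was under 0.05. Open diamonds are the values after the position adjustment, which reach above 0 for 1 *Nfkbib* and 1 *Nfkb1* probe. The circles range from -2.29 for *Tnfaip3* to -0.21 for *Nfkb1*.

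Whether members differed from each other in their response was asked for 6 pairs, with the brightest probe of each gene and an exact 2-sided permutation test over the 6 arrays. That test cannot give a p under 0.10 with 3 arrays per line, adjusted or not. Relative to *Nfkbib*, the log2 fold change differed by -0.95 for *Nfkbia*, by -1.40 for *Nfkbie* and by -1.74 for *Nfkbiz*. *Tnfaip3* differed from *Tnip1* by -1.55 and *Relb* from *Nfkb1* by -0.91. In these 5 pairs the arrays of the lines did not overlap, which gives the smallest p of 0.10 (0.12 after Benjamini-Hochberg adjustment over the 6 pairs). *Relb* differed from *Nfkb2* by -0.39 (p of 0.20). None of the 6 differences could pass a threshold of 0.05 in this design. How many pairs among all probes had no overlap was not counted, so whether members responded differently was not decided.

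The members also moved within each line. Over the 12 probes with a mean above 9, the median deviation from the 1G11-mock mean was -0.25, -0.16 and 0.49 on 1G11-mock arrays 1 to 3, and -0.77, -1.15 and -0.97 on the 1G11-SOD3 arrays. 1G11-mock replicate 3 was thus the highest array for these genes. Between 9 and 10 of the 12 probes fell below the lowest 1G11-mock array on each 1G11-SOD3 array. How many of all bright probes did so was not counted, so these counts are description only. Without 1G11-mock replicate 3 the median log2 fold change over the 14 probes was -0.56 in place of -0.80. Then 4 of the 5 probes passed, where 235 of all 49526 probes outside passed as lower. Without 1G11-SOD3 replicate 2, 3 passed, where 268 of all probes outside passed as lower.

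The rest of the pathway was read from 4 lists of genes, each gene by its brightest probe outside the middle. On that measure, 370 of 20349 genes (1.82%) were lower in 1G11-SOD3 cells. The share of all genes at an unadjusted p under 0.05 was not counted, so the unadjusted counts below are description only. Of the 4 other Rel and IκB genes, none passed by limma, and 1 was lower at an unadjusted p under 0.05. That gene was *Rela*, which encodes the main activating subunit p65. It read 15.49, 15.54 and 15.66 in 1G11-mock cells and 15.16, 15.21 and 14.76 in 1G11-SOD3 cells, which differ by -0.52 (log2) with an adjusted p of 0.345. On no array were *Rel* and *Nfkbid* well above background. Of 11 measured genes for IKK subunits and upstream kinases none passed, and 3 were lower at an unadjusted p under 0.05. Their median log2 fold change was -0.54. Of 13 other negative regulators of the pathway, such as the deubiquitinase gene *Cyld*, none passed and 4 were lower at an unadjusted p under 0.05, with a median of -0.23. After the position adjustment 1 of these 13 passed as lower. It was *Zc3h12a*, which encodes the RNase regnase-1 and which was well above background on 2 of the 1G11-mock and on 0 of the 1G11-SOD3 arrays.

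Of 21 inducible target genes measured, 6 were lower, none was higher, and their median was -0.78. *Ccl2*, which encodes a monocyte-attracting chemokine, read 16.03, 15.42 and 17.27 in 1G11-mock cells and 12.41, 12.08 and 12.69 in 1G11-SOD3 cells, so that it differed by -3.85 ± 0.387 (log2, SE). The leukocyte adhesion molecule gene *Vcam1* differed by -3.02 ± 0.285 and the chemokine gene *Ccl7* by -2.78 ± 0.317, and in all 3 genes the lines stood apart. The other 3 were *Cxcl10* (-2.07), *Icam1* (-1.99) and *Fas* (-1.51), named after their values were seen. *Cxcl10* and *Icam1* lost their calls after the position adjustment, with adjusted p of 0.113 and 0.078. In separate measurements with TNF-α, the paper found the mRNA of *Ccl2*, *Cxcl10*, *Fas* and *Vcam1* to be lower in the SOD3-overexpressing line. For that line it also reported less protein from *Ccl2* and *Vcam1*, and a weaker rise of NF-κB reporter activity in conditioned medium. By contrast, the paper found *Icam1* mRNA to be similar in both lines with and without TNF-α, although its array comparison lists *Icam1* as repressed. Of the 21 genes, 9 were not well above background on all arrays of either line, among them *Tnf*, *Il6* and *Il1b*, which encode the classical NF-κB-induced cytokines. With the replicate number as a block, the count over all 4 lists rose from 6 to 11 (9 targets and 2 other negative regulators), where 3.04% of all genes passed as lower, and the same 5 member probes passed.

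**Figure D4:**
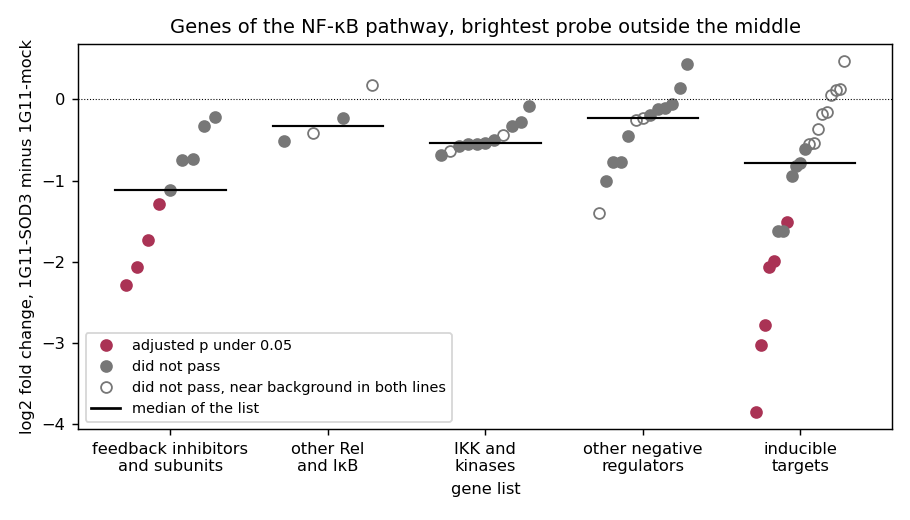
Log2 fold change (vertical axis, 1G11-SOD3 minus 1G11-mock) of each gene of 5 lists (horizontal axis), by its brightest probe outside the middle. Red points passed the test, open points were well above background on every array of neither line, and bars are list medians. By that probe 4 of the 9 members are red, since the brightest *Relb* probe did not pass, and 6 of the 21 inducible targets are.

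The cell lines differed in markers as well. Of 10 endothelial markers, each by its brightest probe outside the middle, *Eng*, *Kdr* and *Vwf* were well above background in both lines. *Cdh5*, *Tek*, *Tie1*, *Emcn* and *Erg* were so on no array, *Pecam1* on 2 arrays of each line and *Cldn5* on 1 1G11-mock array. The paper states that staining for VE-cadherin, which *Cdh5* encodes, regularly verified that 1G11 cells are endothelial. *Vwf* was lower in 1G11-SOD3 cells (-1.65, adjusted p of 0.0033), the only one of the 10 that passed. Of 8 fibroblast and mural cell markers, 5 were higher in 1G11-SOD3 cells, where 225 of all 20349 genes (1.11%) passed as higher. The log2 fold changes were 2.62 for *Acta2*, 2.39 for *Pdgfrb* and 1.43 for *Col3a1*. The other two were *Col1a2* and *Col1a1*, the latter at 2.32 after the position adjustment. The summed level of the list (log2) was 16.21 to 16.23 on the 1G11-mock and 17.10 to 18.50 on the 1G11-SOD3 arrays. The value of 18.50 was on replicate 3, where *Dcn*, which did not pass, read 17.05. *Dcn* read 13.51 and 13.59 on the other 1G11-SOD3 arrays and 14.04 to 14.78 on the 1G11-mock arrays. None of 8 epithelial markers and none of 8 leukocyte markers passed the test or had an unadjusted p under 0.05. The defining leukocyte genes *Ptprc*, *Cd68*, *Adgre1* and *Lyz2* were well above background on no array, as was *Epcam* for epithelium, whereas *Itgam* and *Cd3e* of the leukocyte list and the epithelial *Krt19* were well above background on all 6 arrays. In total RNA of a culture, fewer cells of a type and less RNA per cell cannot be told apart. The part of these marker differences in the values of the NF-κB genes was not tested.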

How the data were processed

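The 6 single-color Agilent SurePrint Mouse G3 arrays lay on 1 slide, with 3 independent experiments per cell line. Per array, scanner output of Agilent Feature Extraction 10.7.3.1 was deposited, in which each spot has a mean and median pixel intensity, a local background intensity and a processed signal intensity, with no scaling between arrays. A second deposited table holds log2 values that the authors made with normexp (offset of 50) and quantile normalization. It was recomputed from median pixel intensities to within 0.005 and served as an alternative.

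Mean spot intensities of non-control spots were corrected with normexp on the local background median (offset of 50), taken to log2 and quantile normalized in limma 3.58.1 (R 4.3.3). Outlier-flagged spots (133 to 197 per array) were left out, and copies of a probe were averaged outside and in the middle separately. Lines were compared with lmFit and eBayes, 2-sided, with Benjamini-Hochberg adjustment over all probes of each zone. The position adjustment subtracted a Gaussian surface (SD of 4 spots) fitted to each array, from spots well above background on several arrays. The code was tested on simulated data. The number of arrays limits the precision of each difference, and quantile normalization assumes that both lines have the same overall distribution of intensities. Figures were made with Python 3.11.15 and matplotlib 3.10.9.

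Same-numbered arrays of the lines shared a slide column. Their deviations from the line means correlated at 0.141, 0.144 and 0.236 over 15187 probes, against -0.159 to 0.051 for unlike numbers. The labels give only a replicate number, and a shared experiment and a shared slide column cannot be told apart. Pairing is thus not established, and the block was run as an alternative only. The members and lists were chosen with earlier results of these data known. Named are all members, *Sod3*, and up to 3 genes per list and direction with the largest passing change and no overlap. Other genes of the lists and markers were named after their values were seen. Other alternatives left the background uncorrected, set the offset to 16, used median pixels, scaled the processed signal or the corrected intensities by the 75th percentile, normalized over outside spots only, left out dim probes, kept outlier spots, let the variance follow a trend, used the deposited table, or left out each array in turn.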

Additional observations from a re-analysis of the deposited data

How the results depend on the processing

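Of 267 recomputed log2 fold changes of member probes, 248 kept their direction and their side of the threshold. With the processed signal, scaled by its 75th percentile, 3 member probes outside the middle were lower in place of 5. The 1 member probe in the middle passed (*Bcl3*, log2 fold change of -1.21), where the share of all middle probes was not counted. Other pathway genes passing were 14 in place of 6, and 2 *Nfkbib* probes turned to 0.0388 and 0.175. Of all 49526 probes outside, 7070 passed as lower with that signal against 557 as compared here, so the rise was not particular to these genes. After the position adjustment, 1 probe in the middle passed, and 1 *Nfkb1* probe (0.12) and 1 *Nfkbib* probe (0.18) turned above 0. With the replicate block, 11 other pathway genes passed, and no member call changed. With 1 array left out, 3 to 4 member probes were lower, where 235 to 351 of all 49526 probes outside were. Then 3 to 5 other pathway genes passed (3 without 1G11-mock replicate 3 and without 1G11-SOD3 replicate 2). The dim *Nfkb1* probe ranged from -0.43 to 0.0650 and the dim *Nfkbib* probe from -0.51 to 0.0289, both above 0 without 1G11-mock replicate 3. With an offset of 16 the adjusted p of *Nfkbia* was 0.0590 and with the processed signal 0.0519. Normalization over outside spots gives no value for the middle, and leaving out dim probes removes 1 *Nfkb1* and 1 *Nfkbib* probe, both near background, where no difference was measurable. The cause of these shifts was not tested.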
